A study of Mus musculus with 18 samples.

Results

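Gene expression was compared between wild-type (WT) primary mouse embryonic fibroblasts (MEFs) and WT mouse liver, using RNA-seq counts of 3 libraries of each, 6 of the 18 RNA-seq libraries of the series. Genes were members if they were protein-coding and listed in both count tables under the same Ensembl gene ID, which gave 21567 genes out of 21959 in the MEF table and 51826 in the liver table. The series compared WT mice with mice lacking repeat B of Xist (RepB-/-), the RNA that silences an X chromosome in female cells, in brain, liver and fibroblasts. The letter W in the library names was read as WT, and none of the 6 libraries carries the deletion by that reading. The mice were of the ICR stock, and their age and sex are not in the labels of these libraries. The MEF libraries are labelled as primary MEF cell line with the tissue Tail, and the cells were grown in high-glucose medium with serum, whereas the liver libraries carry the tissue Liver and nothing further. The name MEF is the labels' own, and the tissue entry Tail leaves it unsettled whether the cells came from embryos or from tails. Nothing in the labels says that replicates came from separate cultures or animals, so p-values measure only the spread between these libraries.

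Fibroblasts are the cells that build and maintain connective tissue. They secrete collagens and other matrix proteins, hold on to that matrix through integrins, and pull on it with a contractile actin skeleton, all of which are prominent in cells grown on a stiff dish in serum. Liver consists by mass mostly of hepatocytes, which make nearly all proteins of the blood plasma, synthesise bile acids, detoxify, dispose of ammonia as urea, and store and release glucose and fat. Hepatocyte identity is held by a network of transcription factors that includes HNF4A, the FOXA proteins and C/EBP alpha. Liver also holds resident macrophages (Kupffer cells), sinusoidal endothelium, stellate cells and bile ducts.

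The 2 tissues were made into libraries, counted and tabulated separately, so tissue, culture, library preparation and counting cannot be told apart in any value given here. The MEF libraries held between 11540344 and 16347806 counts and the liver libraries between 37682201 and 46343577. Levels are library-scaled counts (CPM, counts per 1e6 counts), scaled by the trimmed mean of M values (TMM) in edgeR, and differences are log2 values, MEFs minus liver. One library stood apart. Liver replicate 1 lay at Euclidean distances of 146 and 154 (log2 CPM) from the other liver libraries, which were 75.9 apart, while the MEF libraries were 48.1 to 62.7 apart and MEF and liver libraries 363 to 410 apart. Its level was at least 2-fold from the mean of the other liver libraries for 1462 of 8945 genes (16.3%), against 205 genes (2.29%) between liver replicates 2 and 3, and the lists most affected are given with and without it. A second limit concerned genes that share exons with another gene: 286 tested genes with 50 percent or more of their exonic bases in a neighbour had a median log2 difference of -4.60, against 0.17 for 9381 genes with none, and list counts without genes sharing 20 percent or more are given with the exon overlap results.

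The comparison asked which programmes set fibroblasts and liver apart. Of 14583 genes tested with edgeR's quasi-likelihood test, 3855 (26.4%) were higher in MEFs and 4082 (28.0%) higher in liver, taking a Benjamini-Hochberg adjusted p under 0.05 and a difference of at least 2-fold as the call. Calls in either direction made up 54.4% of tested genes. Every MEF library lay above every liver library for 5828 genes (40.0%), the reverse held for 5376 genes (36.9%), and the libraries of the tissues did not overlap for 11204 genes (76.8%). These shares are the background for each list below, and the median log2 difference over all tested genes was 0.04. A gene at the floor of at most 3 counts in every library of a tissue could enter the test only through the other tissue, so its direction was fixed by that. The number of such members is given for the main liver lists, the mesenchymal factors and most cell type lists. The first principal component separated the tissues and carried 92.4% of the variance. In bulk RNA, fewer cells of a type and less RNA per cell cannot be told apart.

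Transcripts were spread over more genes in MEFs than in liver. The 10 most abundant genes of each library took 7.72% ± 0.531 of protein-coding counts in MEFs (SD, n = 3) and 24.96% ± 3.27 in liver (SD, n = 3). Albumin alone took 11.01% ± 1.09 of liver counts. Plasma protein, complement and coagulation genes together took 0.0862% ± 0.00248 of MEF counts and 30.0% ± 3.85 of liver counts. Matrix genes took 9.54% ± 0.860 in MEFs and 0.709% ± 0.342 in liver, and actin and contractile genes 2.93% ± 0.334 and 0.149% ± 0.0483. For each of these shares the tissues did not overlap, and the two-sided exact permutation test gave 0.1, the smallest p that 3 libraries against 3 allow. The scaling mattered. With library totals alone in place of TMM the median difference over all tested genes moved up by 1.02, and 72.9% of calls were higher in MEFs instead of 48.6%.

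**Figure D1:**
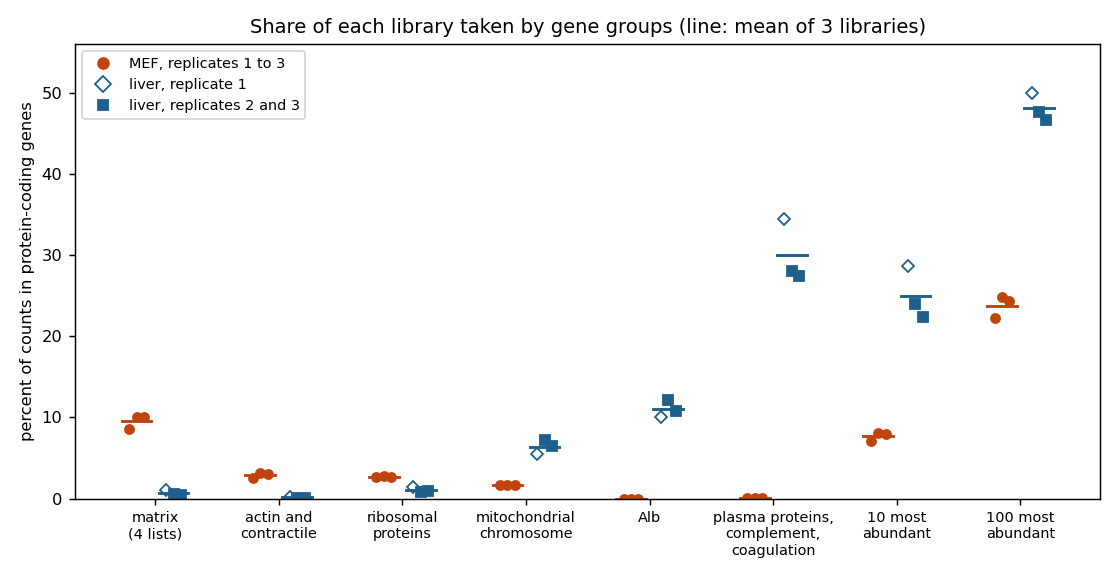
Percent of protein-coding counts (y axis) taken by gene groups (x axis) in each WT library, with MEFs as circles, liver replicate 1 as an open diamond, liver replicates 2 and 3 as squares and a line at the mean of 3 libraries. Matrix genes averaged 9.54% of MEF counts and 0.709% of liver counts, while plasma protein, complement and coagulation genes averaged 0.0862% and 30.0%.

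Fibrillar collagens were higher in MEFs, with exceptions given below. Of 13 interstitial collagens, 11 were higher in MEFs and 1 in liver, with a median log2 difference of 4.93. Col1a1 (ENSMUSG00000001506, chr11:94936224-94953042 in GRCm38), a chain of type I collagen, stood at 3697, 5113 and 4952 CPM in the MEF libraries and 153, 10.4 and 12.6 CPM in the liver libraries. All MEF values exceeded all liver values, and liver replicate 1 was the highest of the liver libraries (log2 difference 6.28, SE 1.29, adjusted p = 0.005). Its partner chain Col1a2 differed by 4.99, and Col5a2, of the type V collagen that nucleates fibrils, by 7.14 (adjusted p = 2.9e-05). Col12a1, a collagen on the fibril surface, reached 1839.6, 2415 and 2326 CPM in MEFs against 4.22, 2.03 and 1.66 CPM in liver, the widest difference of the list at 9.70. Per kilobase of the gene length listed in the MEF table, MEFs held 699 CPM of Col1a1, 233 of Col1a2 and 38.7 of Col3a1.

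Some matrix genes went against the rest of the list. Col3a1, a fibrillar collagen of soft tissues, gave 329, 395 and 417 CPM in the MEF libraries and 669, 77.5 and 77.0 CPM in the liver libraries, so that liver replicate 1 lay above the MEFs and the other liver libraries below them (log2 difference 0.47, adjusted p = 0.65). Without liver replicate 1 its difference was 2.29 (adjusted p = 1.5e-06). Col14a1, a collagen that associates with fibrils, was higher in liver, with 19.4, 21.7 and 23.5 CPM in the MEF libraries and 197, 112 and 94.3 CPM in the liver libraries (log2 difference -2.64, adjusted p = 0.00044). Eln, the elastin gene, gave 2.74, 4.81 and 6.36 CPM in the MEF libraries and 462, 16.3 and 16.0 CPM in the liver libraries (log2 difference -5.14, adjusted p = 0.023), with replicate 1 far above the other liver libraries. The Eln difference was -1.79 without liver replicate 1 and still called, whereas without MEF replicate 1, 2 or 3 it was -4.88, -5.18 and -5.45 and lost the call. Dcn, which encodes the small proteoglycan decorin, was higher in every liver library, with 35.3, 30.7 and 43.6 CPM in the MEF libraries and 278, 284 and 233 CPM in the liver libraries (log2 difference -2.86, adjusted p = 5.2e-05). Lum (lumican, -1.77) and Mfap4, a microfibril-associated gene (-4.45), completed the 4 matrix glycoprotein and proteoglycan genes called higher in liver.

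Collagen processing enzymes were mostly higher in MEFs as well. Of 20 genes for collagen folding, trimming and cross-linking, 17 were higher in MEFs and none in liver, with a median of 3.85. Lox, the lysyl oxidase that cross-links collagen and elastin, had 4284, 5651 and 5726 CPM in the MEF libraries and 8.79, 0.730 and 0.799 CPM in the liver libraries. It was among the 15 most abundant MEF transcripts and nearly absent from liver replicates 2 and 3 (log2 difference 10.56, SE 1.41, adjusted p = 0.0008). Serpinh1, the chaperone of procollagen, differed by 5.14, and the prolyl 4-hydroxylase subunits P4ha1 and P4ha2 by 4.03 and 4.56. The exceptions included P4hb, the hydroxylase's other subunit, which also works as a general protein disulfide isomerase, at 1402, 1554 and 1539 CPM in the MEF libraries and 2294, 1987 and 2011 CPM in the liver libraries (log2 difference -0.49, adjusted p = 0.082).

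Matrix glycoproteins and proteoglycans were higher in MEFs for 17 of 25 and in liver for 4, with a median of 3.71, and without liver replicate 1 for 21 and 4. Thbs1 (ENSMUSG00000040152, chr2:118111876-118127133 in GRCm38), an adhesive glycoprotein that activates TGF-beta, was the most abundant MEF transcript by counts summed over the libraries. It gave 6038, 8908 and 8163 CPM in the MEF libraries and 22.5, 4.50 and 1.996 CPM in the liver libraries (log2 difference 9.64, adjusted p = 0.00064), with no overlap. Sparc, a collagen-binding glycoprotein, stood at 3287, 4217 and 4134 CPM in the MEF libraries and 712, 192 and 214 CPM in the liver libraries and differed by 3.38. Fbn1, the microfibril protein fibrillin, differed by 6.07, with 20.1% of its exonic bases shared with another gene. Fibronectin (Fn1), which fibroblasts assemble into matrix and hepatocytes release into plasma, was abundant in both tissues, at 5199, 5681 and 5808 CPM in the MEF libraries and 4590.1, 2919 and 2120.4 CPM in the liver libraries. The MEF libraries lay above the liver libraries, but the difference of 0.79 missed the call (adjusted p = 0.095). Postn, encoding periostin, did not pass either, at 0.84 (adjusted p = 0.077). Without liver replicate 1 both were called, at 1.14 for Fn1 and 1.29 for Postn.

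Basement membrane genes were higher in MEFs for 8 of 11 and in liver for 2, with a median of 2.76. Col4a1 and Col4a2, the common chains of type IV collagen, differed by 3.27 and 2.98, and the laminin chain Lamc1 by 2.23. Col18a1, the source of endostatin, went the other way. It had 42.8, 53.9 and 54.0 CPM in the MEF libraries and 1361, 1049 and 998 CPM in the liver libraries (log2 difference -4.50, SE 0.24, adjusted p = 2.5e-05), and the liver libraries were close to each other. Col15a1, its relative, was also higher in liver (-2.41).

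The contractile programme was higher in MEFs for 16 of 18 actin and contractile genes, with a median of 3.63. Acta2, the smooth muscle actin of activated fibroblasts, had 1935, 2948 and 2578 CPM in the MEF libraries and 62.9, 10.7 and 6.22 CPM in the liver libraries (log2 difference 6.55, adjusted p = 0.0019). Myl9, a regulatory light chain of myosin, had 184, 283 and 249 CPM in the MEF libraries and 22.0, 5.43 and 4.92 CPM in the liver libraries, and Cnn1, an actin-binding calponin, 163, 243 and 196 CPM against 4.36, 0.162 and 0.699 CPM. In all of these genes every MEF library lay above every liver library, with liver replicate 1 nearest to the MEFs. Even the cytoplasmic actins used by every cell differed: Actg1 stood at 1733, 2287 and 2073 CPM in the MEF libraries and 305, 275 and 168 CPM in the liver libraries (log2 difference 3.03, adjusted p = 0.00027), and Actb differed by 2.35. Vim, the intermediate filament protein of mesenchymal cells, differed by 6.21 (adjusted p = 0.0002). The listed exception was Tagln, a calponin-related actin-binding gene, at 0.876, 0.726 and 0.696 CPM in the MEF libraries and 57.3, 15.4 and 7.32 CPM in the liver libraries. That value is uncertain, since 67.9% of the exonic bases of Tagln lie in exons of another gene, and without genes of this kind the list held 16 of 17 higher in MEFs and none in liver.

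Adhesion genes followed the same direction. Of 21 integrin and focal adhesion genes, 17 were higher in MEFs and 3 in liver, with a median of 2.17. Itgb1, the beta subunit shared by the main matrix receptors, had 885, 1046 and 1059 CPM in the MEF libraries and 273, 204 and 192 CPM in the liver libraries (log2 difference 2.16, adjusted p = 0.00026), and its fibronectin-binding partner Itga5 differed by 3.44. Vcl, encoding vinculin, and Itgav, which pairs with several beta subunits, differed by 3.49 and 3.75, with 25.5% of the exonic bases of Vcl shared with another gene. Higher in liver were Itga1, a collagen receptor subunit, at the 2-fold limit, Itga8 (-1.46) and Ilk (-7.60). The Itga1 difference was -0.89 without MEF replicate 1 and -0.95 without liver replicate 3, where it lost the call, and changed sign to 0.0096 with library totals alone. Ilk, with 89.7% of its exonic bases shared with other genes, is uncertain.

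Targets of YAP and TGF-beta, which respond to stretch and to matrix stiffness, were higher in MEFs for 15 of 18, with a median of 3.56. The matricellular genes Ccn1 and Ccn2 differed by 5.07 and 5.27, with 23.2% of the exonic bases of Ccn2 shared, and Ankrd1, a YAP target, had 11.2, 19.3 and 16.3 CPM against 1.35, 0.243 and 0.200 CPM. Tgfbi, induced by TGF-beta in many cells, was higher in liver at 5.26, 4.63 and 5.01 CPM in the MEF libraries and 214, 75.9 and 70.4 CPM in the liver libraries (log2 difference -4.60, adjusted p = 0.00038).

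Mesenchymal transcription factors were low in level but among the clearest in contrast. Of 26 tested, 21 were higher in MEFs and 1 in liver, with a median of 5.13. Prrx1, a homeobox factor of limb and body wall mesenchyme, had 171, 223 and 207 CPM in the MEF libraries and 1.95, 0.446 and 0.832 CPM in the liver libraries (log2 difference 7.53, adjusted p = 8.4e-05). Twist1 had 40.7, 41.3 and 36.7 CPM in MEFs and 2.13, 1.05 and 0.932 CPM in liver, and Snai2, a factor of epithelial to mesenchymal transition, 14.0, 18.8 and 19.8 CPM and 5.74, 7.95 and 8.19 CPM. Twist2, with 46.5% of its exonic bases shared, was not called (2.54, adjusted p = 0.11), but was without liver replicate 1 (5.74). The gene higher in liver was Tcf21, a factor of visceral mesenchyme including stellate cells, at 0.292, 0.0454 and 0 CPM in the MEF libraries and 28.9, 8.35 and 8.52 CPM in the liver libraries (log2 difference -7.18, adjusted p = 0.0012).

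Growth factors and their receptors were split, with 8 of 18 higher in MEFs and 7 in liver, and 10 and 4 with library totals alone. The PDGF receptors Pdgfra and Pdgfrb, which drive fibroblast growth, were higher in MEFs by 2.44 and 3.46, and Fgfr1 and its ligand Fgf2 by 5.07 and 5.64. On the liver side, Igf1, the circulating growth factor that liver supplies, had 2.57, 3.18 and 1.70 CPM in the MEF libraries and 364, 1163 and 1343 CPM in the liver libraries (log2 difference -8.59, adjusted p = 0.0001). Fgfr4, the receptor of the gut hormone that restrains bile acid synthesis, differed by -9.04, and Met, the receptor of hepatocyte growth factor, by -2.86. Igf2 is described with liver replicate 1, where it was high.

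At 1 CPM or more in every library of a tissue, 11709 genes were detected in MEFs and 11707 in liver, 10138 of them in both. Among those detected in MEFs, 255 held at most 3 counts in every liver library, and 452 without liver replicate 1. Among those detected in liver, 408 held at most 3 counts in every MEF library. Folds against such a floor are lower bounds, computed from 3 counts in the shallowest library of the lower tissue. Among counts of 2 to 50, 61.5% to 63.3% were even in the liver libraries and 53.6% to 54.9% in the MEF libraries. Whether 3 counts stand for as many fragments in both tables was not tested. The largest bounds among MEF genes included Ptgs2, the inducible cyclooxygenase, with 602, 618 and 624 CPM in MEFs and 0 counts in liver (at least 5055-fold higher). Thbs4, a thrombospondin of tendon and muscle, had 628, 575 and 603 CPM (at least 4948-fold higher). For each of these genes the MEF libraries were close to each other. Near 0 in liver as well were Cemip, a hyaluronan-degrading protein (716, 1122 and 1046 CPM against 0.142, 0 and 0 CPM), Il1rl1, the receptor of interleukin 33 (855, 912 and 924 CPM against 0.390, 0 and 0 CPM), and Ptx3, a secreted pattern recognition protein (285, 430.1 and 419 CPM against 0.461, 0 and 0.133 CPM).

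**Figure D2:**
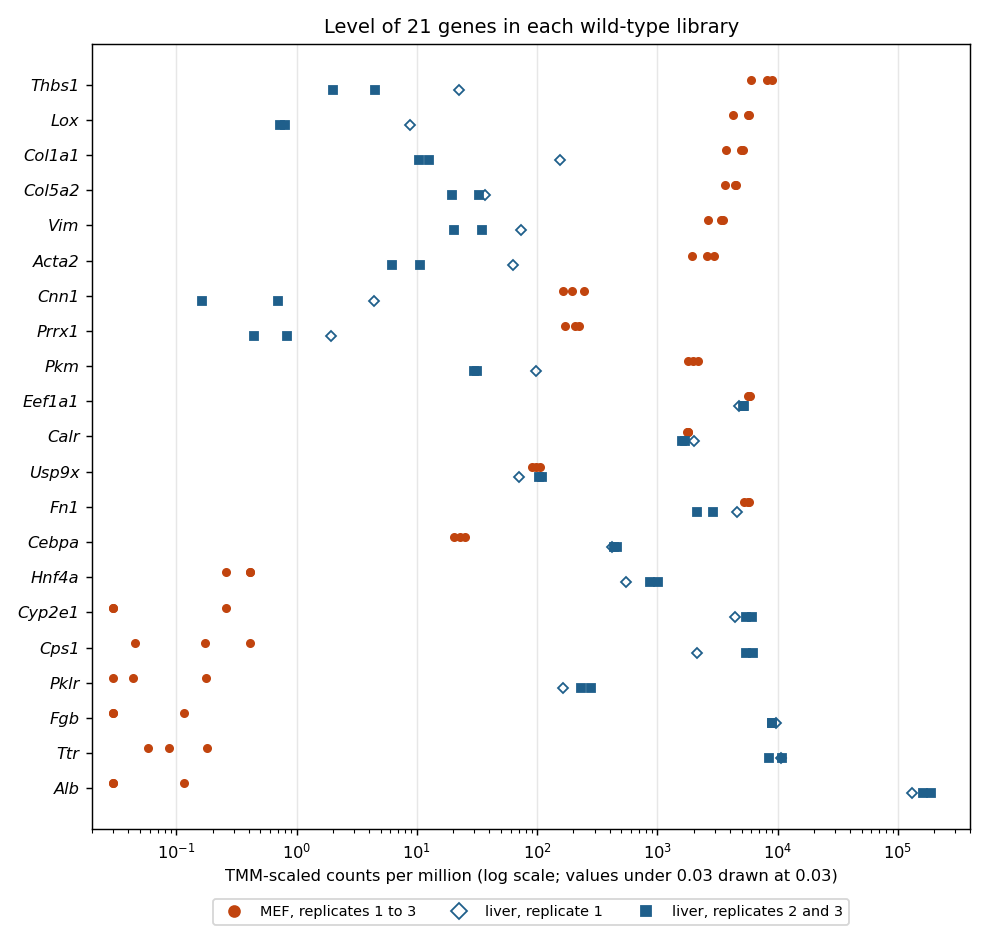
TMM-scaled CPM on a log axis (x axis, values under 0.03 drawn at 0.03) of 21 genes (y axis) in each WT library, with MEFs as circles, liver replicate 1 as an open diamond and liver replicates 2 and 3 as squares. Thbs1 to Pkm lay higher in MEFs, Eef1a1, Calr, Usp9x and Fn1 within 1 log2 unit in the fitted difference, and Cebpa to Alb higher in liver.

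Liver was dominated by the secreted products of hepatocytes. All 24 plasma protein genes were higher in liver, with a median of -16.17 (-14.92 with floor genes at their bound), and for each the libraries of the tissues did not overlap. Of these genes 11 were at the floor in MEFs. Albumin (Alb, ENSMUSG00000029368, chr5:90460897-90476602 in GRCm38) stood at 0.117, 0 and 0 CPM in MEFs and 130116, 188802 and 160376 CPM in liver, at least 911876-fold higher in liver. Transthyretin (Ttr), the carrier of thyroid hormone and retinol-binding protein, had 0.0584, 0.181 and 0.0871 CPM in the MEF libraries and 10541, 8475 and 10776 CPM in the liver libraries (log2 difference -16.37, adjusted p = 1.1e-05). Apolipoprotein A1 (Apoa1) had 24656, 8588 and 10558 CPM in liver, highest in replicate 1, and 0.292, 0.136 and 0.131 CPM in MEFs. The fibrinogen chains, which assemble in equal numbers, were close per kilobase of listed gene length, at 3161 CPM for Fga, 2416 for Fgb and 3316 for Fgg. Fgb was at least 52549-fold higher in liver, with 0.117, 0 and 0 CPM in the MEF libraries and 9735, 8889 and 8996 CPM in the liver libraries. Ahsg, which encodes fetuin, varied more, at 66712, 18768 and 19692 CPM in liver, with replicate 1 highest.

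Complement and coagulation genes were higher in liver for 30 of 31, with a median of -10.77 and 9 members at the floor in MEFs. C3, the central complement component, had 102, 99.9 and 115 CPM in the MEF libraries and 16818, 22192 and 19439 CPM in the liver libraries (log2 difference -7.53, adjusted p = 3.3e-05). The MEF libraries were close to each other and well above 0. Prothrombin (F2) and plasminogen (Plg) were near 0 in MEFs, at 0.175, 0.318 and 0.305 CPM and 0.526, 0 and 0.0435 CPM, against 3529, 3431 and 3331 CPM and 4842, 4978 and 4585 CPM in liver. The liver libraries were close to each other for both. The member without a call was Masp1, a protease of the lectin pathway, chosen after its values were seen, at 176, 214 and 210.4 CPM in the MEF libraries and 95.1, 169 and 136 CPM in the liver libraries (log2 difference 0.59, adjusted p = 0.063). Cfb, Masp2 and Serpinc1 share at least 20 percent of their exonic bases with other genes, and without them the count was 27 of 28.

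The transcription factors that hold hepatocyte identity were higher in liver for 22 of 25, with a median of -6.90 and 4 members at the floor in MEFs. Hnf4a (ENSMUSG00000017950, chr2:163506808-163572910 in GRCm38), a nuclear receptor at the head of this network, had 0.409, 0.408 and 0.261 CPM in the MEF libraries and 544, 1012 and 866 CPM in the liver libraries (log2 difference -11.12, SE 0.44, adjusted p = 1.2e-05). Cebpa, a factor that also serves the fat cell lineage, was by contrast present in MEFs. It had 25.1, 20.4 and 22.7 CPM in the MEF libraries and 415, 462 and 435 CPM in the liver libraries (log2 difference -4.27, adjusted p = 1.2e-05). None of the 25 was higher in MEFs.

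Short regulatory sequences ahead of these genes are shown for a plasma protein pair and a contractile pair that held the motif named below, chosen after their sequences were seen. Of 14583 tested genes, 11453 had a promoter in RefSeq's GRCm38.p6 set, taken as 250 bases before to 50 after a start. The C/EBP motif TTGCNNAA, read on both strands, was in 34.0% of 47 promoters of plasma protein, complement and coagulation genes, in 8.87% of promoters of tested genes and in 10.8% of all 32851 promoters. Among genes called higher in liver it was in 11.2%, and among those higher in MEFs in 8.54%. The CArG box, bound by SRF at contractile genes, was in 3 of 17 promoters (17.6%) of actin and contractile genes, those of Actg1, Cnn2 and Myl9, against 1.29% of tested promoters. Motifs of the factors HNF4, AP-1 and TEAD and the TATA box were also counted. Each of these, and the CArG box (4.26%), was more frequent in the plasma set than in tested promoters. TEAD was in 19.15% against 12.49%. Of contractile promoters, 35.3% held the TEAD motif, more than held the CArG box. AP-1 and TATA motifs were also more frequent there than in tested promoters, and HNF4 and C/EBP motifs less frequent. A higher share was therefore not particular to C/EBP or the CArG box. The sets differed in base composition too. Median G+C was 57.3% in liver-higher and 61.3% in MEF-higher promoters, and the plasma set held a median of 5 CpG against 14 and 18 in those, and its part in the motif shares was not tested. The last 180 bases before the start are printed 5′ to 3′ for Alb (chr5:90460690-90460869, plus strand), Fgb (chr3:83049864-83050043, minus strand), Myl9 (chr2:156775284-156775463, plus strand) and Actg1 (chr11:120348496-120348675, minus strand), with each match to the C/EBP motif (Alb, Fgb) or the CArG box (Myl9, Actg1) in capitals.
Alb: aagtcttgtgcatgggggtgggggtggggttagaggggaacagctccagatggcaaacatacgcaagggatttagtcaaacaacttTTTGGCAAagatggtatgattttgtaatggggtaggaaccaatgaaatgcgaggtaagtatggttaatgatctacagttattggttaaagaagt
Fgb: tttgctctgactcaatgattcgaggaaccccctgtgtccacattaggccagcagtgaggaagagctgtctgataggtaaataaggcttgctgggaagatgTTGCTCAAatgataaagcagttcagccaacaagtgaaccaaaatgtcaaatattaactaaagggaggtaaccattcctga
Myl9: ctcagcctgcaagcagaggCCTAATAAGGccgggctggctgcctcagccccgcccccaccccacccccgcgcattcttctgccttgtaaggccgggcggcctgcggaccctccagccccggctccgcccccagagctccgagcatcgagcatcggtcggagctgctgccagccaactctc
Actg1: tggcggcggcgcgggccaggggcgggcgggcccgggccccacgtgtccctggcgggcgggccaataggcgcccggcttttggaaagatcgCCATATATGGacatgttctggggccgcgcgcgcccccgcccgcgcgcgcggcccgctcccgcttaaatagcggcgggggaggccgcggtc
The C/EBP match nearest the start ended 86 bases before it in Alb and 72 in Fgb, and the CArG match 151 bases before it in Myl9 and 80 in Actg1. Starts here are those of the promoter set. For Alb that start lies upstream of the gene start printed with its levels. A match describes the letters of the window and nothing else.

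Detoxification was a liver programme with large differences among the liver libraries. Of 32 cytochrome P450 and conjugating enzyme genes tested, 31 were higher in liver, with a median of -12.64 (-11.25 with floor genes at their bound) and 16 of the 34 listed at the floor in MEFs. Cyp2e1, which oxidises ethanol and small solvents, had 0, 0 and 0.261 CPM in the MEF libraries and 4408, 5494 and 6123 CPM in the liver libraries (log2 difference -15.71, adjusted p = 6.9e-05). Cyp3a11, the main drug-metabolising P450 of mouse liver, had 2067, 6457 and 9864 CPM in liver and Cyp2c29 263, 2823 and 3265 CPM, with replicate 1 lowest for both. Cyp1a2 was at least 4745-fold higher in liver. The member without a call, Ephx1, a microsomal epoxide hydrolase named after its values were seen, was expressed in both tissues, at 258, 316 and 274 CPM in the MEF libraries and 98.7, 324 and 585 CPM in the liver libraries.

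Bile acid genes were higher in liver in all 18 cases, with a median of -10.84 (-10.16 with floor genes at their bound) and 6 at the floor in MEFs. Cyp7a1, the rate-limiting enzyme of bile acid synthesis, had 0 counts in MEFs and 42.6, 360.2 and 109 CPM in liver, at least 973-fold higher. Replicate 2 was the highest and replicate 1 the lowest liver library. Abcb11, the bile salt export pump, had 252, 777 and 557 CPM and Slc10a1, the uptake carrier of bile salts, 190.1, 424 and 338 CPM in liver, against 0.117, 0.181 and 0.305 CPM and 1.11, 0.499 and 0.305 CPM in MEFs. Cyp8b1, which sets the share of cholic acid, was at least 2220.0-fold higher.

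Nitrogen disposal and amino acid breakdown were higher in liver for 28 of 29 genes, with a median of -8.81 and 5 members at the floor in MEFs. Cps1, the first enzyme of the urea cycle, had 0.409, 0.0454 and 0.174 CPM in the MEF libraries and 2129.6, 6170.0 and 5483 CPM in the liver libraries (log2 difference -14.46, adjusted p = 5.6e-05). Ass1, the next but one, which can also serve to make arginine, was expressed in MEFs as well. It had 245, 327 and 295 CPM in the MEF libraries and 1027, 6805 and 5255 CPM in the liver libraries (log2 difference -3.92, adjusted p = 0.0031). Arg1 and Otc were near 0 in MEFs and at 606, 1538 and 1674 CPM and 359, 774 and 687 CPM in liver. Liver replicate 1 was the lowest liver library in all of these genes and still above every MEF library.

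All 12 genes of gluconeogenesis and glycogen were higher in liver (median -7.68), and so were all 27 of fatty acid oxidation, ketone bodies and peroxisomes (median -3.75). At the floor in MEFs were 2 and 1 of them. G6pc, which releases glucose, had 543, 317 and 254 CPM in liver against 0.701, 0.0907 and 0.348 CPM in MEFs, and Fbp1 was at least 8862-fold higher. Pck1, which feeds glucose synthesis from lactate and amino acids, had 2884, 732 and 726 CPM in liver, with replicate 1 highest. In fat oxidation, the carnitine palmitoyltransferases Cpt1a and Cpt2, which carry fatty acids into mitochondria, differed by -2.17 and -2.52. Fabp1, the fatty acid carrier of liver cytoplasm, was at least 17983-fold higher in liver.

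Lipid and sterol synthesis was the least uniform liver list. Of 27 genes, 17 were higher in liver and none in MEFs, with a median of -2.94, 22 without liver replicate 1, and 11 without either MEF replicate 1 or liver replicate 2. With library totals alone 11 were higher in liver and the median was -1.91. At the floor in MEFs was 1 member. Scd1, which desaturates fatty acids, had 115, 133 and 139 CPM in the MEF libraries and 32.1, 2608 and 3358 CPM in the liver libraries, so replicate 1 lay below the MEFs (log2 difference -3.95, adjusted p = 0.039). Fasn, the fatty acid synthase, had 308, 331 and 322 CPM in the MEF libraries and 58.0, 1001 and 680.4 CPM in the liver libraries and was not called (-0.86, adjusted p = 0.4). The Scd1 call was lost without any one library other than liver replicate 1, over a range of -4.06 to -3.37, and the difference was -4.54 without that library. Fasn was called without it (-1.40). In both genes liver replicate 1 was below every MEF library and the other liver libraries were above them.

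**Figure D3:**
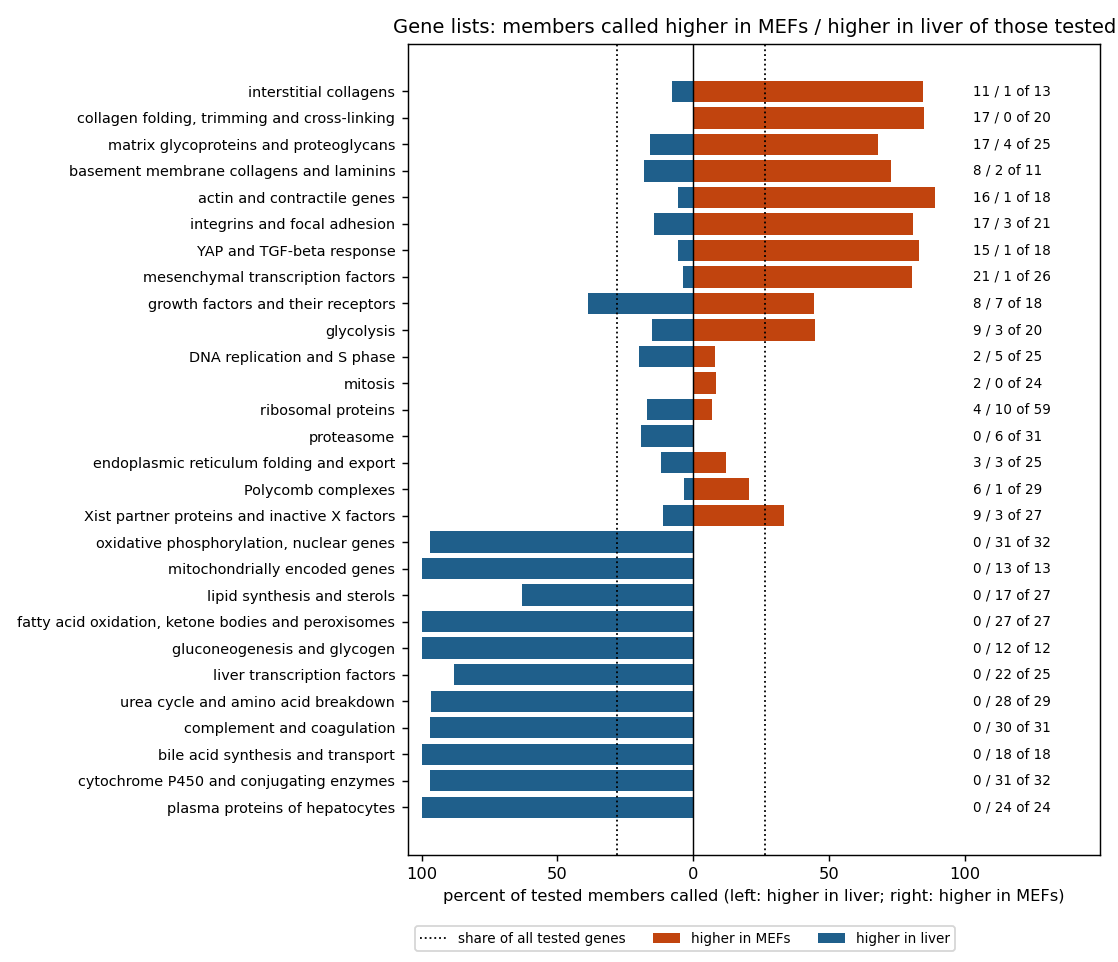
Percent of tested members of 28 gene lists (y axis) called higher in MEFs (bars to the right) or higher in liver (bars to the left), with the counts at the right and dotted lines at the shares of all tested genes, 26.4% and 28.0%. Matrix, contractile, adhesion and mesenchymal lists were called mostly higher in MEFs, hepatocyte and mitochondrial lists higher in liver, and cell cycle, ribosomal protein, proteasome and export lists seldom in either direction.

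Glycolytic genes were higher in MEFs more often than in liver. Of 20 glycolysis genes, 9 were higher in MEFs and 3 in liver. Hk2, a hexokinase with high affinity for glucose, had 74.2, 72.4 and 71.1 CPM in the MEF libraries and 4.36, 3.81 and 3.19 CPM in the liver libraries (log2 difference 4.26, adjusted p = 1.1e-05), and Hk1 differed by 3.82. Isoforms differed at the last step of the pathway. Pkm, the pyruvate kinase of most tissues, had 1803, 2158 and 1965 CPM in the MEF libraries and 98.1, 31.8 and 29.6 CPM in the liver libraries (log2 difference 5.22, adjusted p = 0.0004), and Pklr, the liver form, 0.175, 0 and 0.0435 CPM in MEFs and 163, 234 and 278 CPM in liver, with 22.0% of its exonic bases shared with another gene. Ldha, lactate dehydrogenase A, was not called (0.28, adjusted p = 0.58).

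Respiratory chain genes were higher in liver. Of 32 nuclear oxidative phosphorylation genes, 31 were called, with a median of -1.94. With library totals alone 12 were called and the median was -0.92, none being called higher in MEFs under either scaling. Ndufa9, of complex I, differed by -2.05, Sdhb, of complex II, by -2.18 and Cox5a, of complex IV, by -3.22. The mitochondrial chromosome took 1.67% ± 0.0428 of MEF counts and 6.39% ± 0.857 of liver counts (SD, n = 3), and all 13 of its protein genes were called higher in liver. The MEF levels of those genes were uneven. mt-Co1 had 7229, 6983 and 6771 CPM in MEFs, while mt-Co2, mt-Co3, mt-Nd3, mt-Nd4l, mt-Atp6 and mt-Atp8, named after their values were seen, had at most 12.1 CPM in any MEF library, although these genes are transcribed together with their neighbours. In liver all 13 were at 285 CPM or more. How the MEF reads of this compact chromosome were assigned was not given, so differences of these genes are uncertain.

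Machinery shared by all cells differed little, and its direction depended on scaling. Of 59 ribosomal protein genes, 4 were higher in MEFs and 10 in liver, with a median of 0.29, but 35 and 6 with library totals alone. The MEF-higher count was 10 without liver replicate 1, 2 without liver replicate 3 and 1 without MEF replicate 2. Rplp0 had 1292, 1497 and 1396 CPM in the MEF libraries and 871, 406 and 470.2 CPM in the liver libraries (log2 difference 1.26, adjusted p = 0.014), and lost the call without MEF replicate 2 (1.17) or liver replicate 3 (1.12). Rpl4 differed by 0.04. Those called higher in liver included Rpl24, Rpl13a, Rpl35 and Rpl30, chosen after their values were seen and sharing exons with other genes. Ribosomal proteins also have many pseudogenes, and counts can be split among them. Without overlapping genes 3 of 51 were higher in MEFs and 5 in liver. The proteasome list gave 6 of 31 higher in liver and none in MEFs, against 1 and 5 with library totals alone, and 10 in liver without liver replicate 1. Genes of protein folding and export in the endoplasmic reticulum gave 3 of 25 in each direction, 11 and 1 with library totals alone, and 5 in liver without liver replicate 1. Calr, a calcium-binding chaperone, had 1794, 1777 and 1771 CPM in the MEF libraries and 1994, 1598 and 1684 CPM in the liver libraries (log2 difference 0.02, adjusted p = 0.95), and Hspa5, the main chaperone of the compartment, differed by 0.61 (adjusted p = 0.1).

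The most abundant genes with a log2 difference under 0.25 included genes of translation, iron storage and folding. Eef1a1, a translation elongation factor, had 5683, 5848 and 5813 CPM in the MEF libraries and 4721, 5158 and 5256 CPM in the liver libraries, and Eef2 had 2141, 2517 and 2403 CPM and 2248, 2248 and 2759 CPM. Fth1, the heavy chain of ferritin, differed by -0.24, Hsp90ab1 by 0.04 and Ctsl, a lysosomal protease, by 0.13. These small differences hold for TMM scaling.

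Cell cycle genes gave different counts with and without liver replicate 1. Over 24 mitosis genes, 2 were higher in MEFs and none in liver, and without that library 15 and none, and 8 with library totals alone. Over 25 genes of DNA replication and S phase, 2 were higher in MEFs and 5 in liver, and without it 12 and 5. Leaving out any other library left 0 or 1 of the S phase genes higher in MEFs and, for mitosis, 0 to 2, with 3 mitosis genes higher in liver without liver replicate 2. The summed level of the mitosis list was 376, 377 and 413 CPM in MEFs and 419, 38.6 and 192 CPM in liver, so liver replicate 1 was as high as the MEFs. Cdk1, the kinase that starts mitosis, had 26.4, 25.6 and 27.2 CPM in the MEF libraries and 20.2, 1.18 and 8.12 CPM in the liver libraries (log2 difference 1.42, adjusted p = 0.17, and 2.47 without liver replicate 1, adjusted p = 0.0045). Mcm2, of the replicative helicase, had 38.8, 39.0 and 37.8 CPM in the MEF libraries and 78.7, 6.93 and 12.1 CPM in the liver libraries (log2 difference 0.24, adjusted p = 0.81, and 2.004 without it, adjusted p = 5.3e-05). Pcna, called higher in liver at -2.29 and not without MEF replicate 1 (-2.19), has named pseudogenes and is uncertain.

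Liver replicate 1 differed from the other liver libraries in genes of liver age and of blood cells. The summed level of 10 fetal liver genes was 2036 CPM there and 27.3 and 23.5 CPM in replicates 2 and 3. Afp, the albumin-like protein of fetal plasma, had 586, 9.49 and 4.39 CPM in liver replicates 1 to 3, and Igf2, a fetal growth factor, 1212, 1.501 and 1.26 CPM. Both were called higher in liver than in MEFs with all libraries (adjusted p = 0.0094 and 0.026), and without liver replicate 1 the differences were -7.54 and -2.80 in place of -12.39 and -10.99. The Igf2 call was lost without MEF replicate 1 (-11.11), 2 (-10.80) or 3 (-11.10), and 64.5% of its exonic bases lie in other genes. Gpc3, a fetal cell surface proteoglycan, had 3.85, 3.13 and 3.53 CPM in the MEF libraries and 125, 1.54 and 0.632 CPM in the liver libraries, and its difference was -3.59 (adjusted p = 0.12) with that library and 1.70 (adjusted p = 0.0059) without it. The 14 late or adult liver genes summed to 7587 CPM in replicate 1 and 31496 and 35690.4 CPM in the others. Mup3, a major urinary protein, had 0, 4429 and 5719 CPM and was not tested, having counts in 2 libraries alone, and A1bg had 0.567, 1461 and 4341 CPM. Mup genes are near-identical copies whose reads can be split between them.

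**Figure D4:**
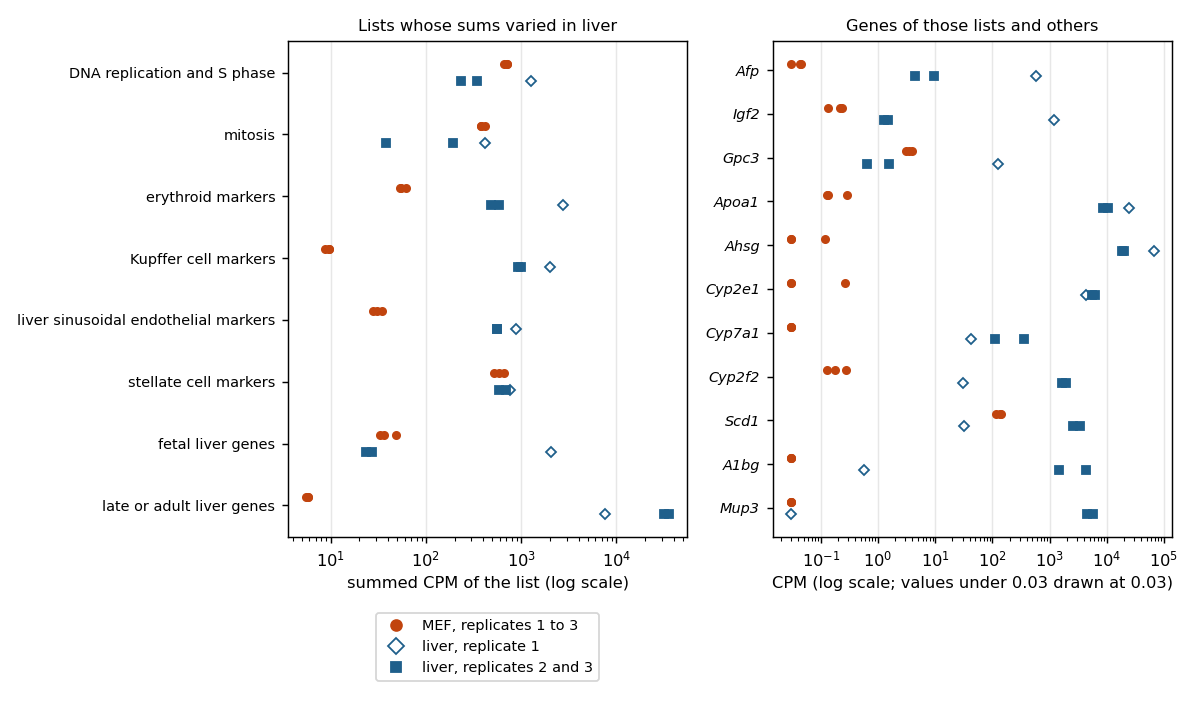
CPM on log axes in each WT library, summed over lists whose liver sums varied (left) and of single genes (right), with MEFs as circles, liver replicate 1 as an open diamond and liver replicates 2 and 3 as squares. In liver replicate 1 the fetal liver genes summed to 2036 CPM and the late or adult genes to 7587 CPM, against 27.3 and 31496 CPM in replicate 2.

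Markers of blood and macrophages moved with that library too. Erythroid markers summed to 2769 CPM in liver replicate 1 and to 587 and 486 CPM in the others, and Kupffer cell markers to 2019, 916 and 1003 CPM. Their part in the differences between liver libraries was not tested, and age, which the labels do not give, cannot be told apart from other features of that library. In MEFs the erythroid markers summed to 52.9 to 61.8 CPM, with 5 members at the floor. The list includes Tfrc, the transferrin receptor gene, which differed by -0.65 without liver replicate 1 and was not called there. The source of the MEF sum was not tested.

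Cell type markers matched the labels for the main cell types. All 8 hepatocyte markers were higher in liver, 3 of them at the floor in MEFs. Their sum was 0.817 to 1.40 CPM in MEFs and 221814 to 246344 CPM in liver. Of 10 fibroblast markers, 5 were higher in MEFs and 2 in liver, and 7 and 2 without liver replicate 1. Thy1, a surface protein of fibroblasts, had 142, 177 and 165 CPM in the MEF libraries and 7.58, 2.35 and 2.89 CPM in the liver libraries (log2 difference 5.24, adjusted p = 0.00021). Those higher in liver were Dpt (-2.33), encoding dermatopontin, and Lum. All 10 Kupffer cell markers and all 10 sinusoidal endothelial markers were higher in liver, with 4 and 2 at the floor in MEFs. The direction of such floor members was fixed in advance. Clec4f, a Kupffer cell lectin, had 0 counts in MEFs and 163, 208 and 230.4 CPM in liver (at least 1145-fold higher), and Clec4g, a lectin of sinusoidal endothelium, 92.7, 93.2 and 94.9 CPM (at least 534-fold higher). Stellate cell markers were higher in liver for 8 of 9, with 3 members at the floor in MEFs. Lrat, which stores retinol as esters, had 21.4, 31.8 and 23.1 CPM in liver. Of the general endothelial markers 7 of 8 were higher in liver, with 1 at the floor in MEFs. Lymphocyte markers summed to 33.4, 11.5 and 13.6 CPM in liver and 1.72 to 2.39 CPM in MEFs, where 6 of 11 were at the floor. All 10 periportal and 8 of 10 pericentral hepatocyte genes were higher in liver, with 1 and 4 members at the floor in MEFs. Of 10 fetal liver genes 8 were tested, and 1 was higher in MEFs and 3 in liver, against 5 and 3 without liver replicate 1 and 1 in liver without any one MEF library.

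Some markers of other lineages were found in MEFs. Of 9 skeletal muscle markers, 5 were at the floor in liver and 1 in MEFs. Of the 6 tested, 4 were higher in MEFs and 2 were not called. Myog, a factor of muscle differentiation, had 3.27, 2.95 and 3.22 CPM in MEFs and 0 counts in liver (at least 25.9-fold higher), and Myod1 1.34, 1.22 and 1.13 CPM. Acta1, the skeletal muscle actin, named after its values were seen, had 76.6, 126 and 97.1 CPM. Of 9 cartilage and bone markers, 7 were at the floor in liver and 2 in MEFs. Of the 7 tested, 5 were higher in MEFs, 1 was higher in liver and 1 was not called. The lowest log2 difference of that list was -1.66, and its member Alpl differed by -1.84 without liver replicate 1. Col2a1, the collagen of cartilage, had 27.3, 18.2 and 22.9 CPM in MEFs (at least 188-fold higher), Acan, the cartilage proteoglycan, 17.6, 13.2 and 13.7 CPM and Col10a1, of hypertrophic cartilage, 9.52, 10.3 and 10.5 CPM. Smooth muscle and pericyte markers were higher in MEFs for 5 of 9, with Cspg4 at 231, 277 and 262 CPM in the MEF libraries and 1.49, 0 and 0 CPM in the liver libraries (log2 difference 8.98, adjusted p = 0.0018), and Rgs5, a pericyte gene, higher in liver (-4.71). Of 6 keratinocyte markers tested, 3 were higher in MEFs and 3 in liver. That list summed to 24.7, 24.8 and 24.7 CPM in MEFs and 238, 261 and 207 CPM in liver. Its keratin Krt14 reached 0.409, 1.41 and 1.65 CPM in MEFs. Of 7 neural and Schwann markers 3 were higher in MEFs, and of 6 bile duct markers 3 were higher in MEFs and 1 in liver, the last lost without any one MEF library. The summed levels of the muscle list were 106, 157 and 130 CPM in MEFs, against 4430 to 6023 CPM for the fibroblast list. Their part in other differences was not tested.

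X-linked genes were of interest because the series concerned X inactivation. Of 448 X-linked genes tested, 123 (27.5%) were higher in MEFs and 94 (21.0%) in liver, against 26.4% and 28.1% of 14122 autosomal genes. Their median log2 difference exceeded the autosomal one by 0.29, and by 0.14 among genes with at least 10 CPM in either tissue. X-linked genes took 3.15% ± 0.0839 of MEF counts and 1.38% ± 0.0777 of liver counts (SD, n = 3), a share that also moves with the abundance of autosomal liver transcripts. Y-linked genes, of which 4 were counted, summed to at most 4 counts in any of the 6 libraries.

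Of 9 genes that the study followed, 8 were tested. Usp9x (ENSMUSG00000031010, chrX:13071498-13173328 in GRCm38), an X-linked deubiquitinase, had 90.5, 98.4 and 105 CPM in the MEF libraries and 70.3, 109.7 and 104 CPM in the liver libraries. The libraries overlapped, and the difference was 0.05 (SE 0.20, adjusted p = 0.84). Gpsm1 and Gpsm2, which orient the mitotic spindle, went in opposite directions, at 2.58 (adjusted p = 0.024) and -1.20 (adjusted p = 0.0011). The Gpsm1 call was lost without MEF replicate 1 (2.47), 2 (2.59) or 3 (2.62) or liver replicate 3 (2.17), and the difference was 4.09 without liver replicate 1. Zdhhc9, an X-linked palmitoyltransferase, was called higher in liver at -1.01 (adjusted p = 0.0037) but stood at -0.91 without MEF replicate 1, -0.89 without liver replicate 2 and 0.019 with library totals alone. Cep131, a centrosome gene, differed by -0.13 (adjusted p = 0.63), and Rbm41, also X-linked, by 0.82 (adjusted p = 0.043). Of 8 genes that escape X inactivation, 2 were higher in MEFs and none in liver, and 7 with library totals alone, while leaving out any one library left 0 or 1. Kdm6a, a histone demethylase that escapes, had 29.7, 20.5 and 25.9 CPM in the MEF libraries and 25.9, 23.8 and 26.4 CPM in the liver libraries (log2 difference -0.0012), and 1.02 with library totals alone.

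Most Polycomb and Xist partner genes were not called in either direction. Of 29 Polycomb genes, 6 (20.7%) were higher in MEFs and 1 (3.45%) in liver, with a median of 0.09, and 13 and none with library totals alone. The shares of all tested genes were 26.4% and 28.0%. Pcgf3, of the variant complex that Xist recruits, had 86.9, 91.4 and 90.2 CPM in the MEF libraries and 34.3, 39.3 and 39.7 CPM in the liver libraries (log2 difference 1.24, adjusted p = 0.00018). Ezh2 and Rnf2, the catalytic subunits, did not reach the call, at 0.26 (adjusted p = 0.46) and 0.47 (adjusted p = 0.026). Cbx2, a chromodomain subunit, was higher in liver (-1.27). Of 27 Xist partners and inactive X factors, 9 (33.3%) were higher in MEFs and 3 (11.1%) in liver, and 14 and 1 with library totals alone. Spen, which silences genes next to Xist, had 83.0, 70.1 and 77.4 CPM in the MEF libraries and 32.0, 49.7 and 33.4 CPM in the liver libraries (log2 difference 1.00, adjusted p = 0.0044). It fell under the 2-fold limit without MEF replicate 1 (0.92) or 3 (0.96) or liver replicate 1 (0.88) or 3 (0.90). Higher in liver were Dnmt3b, a DNA methyltransferase (-2.75), Macroh2a1, a histone variant of the inactive X (-1.09), and Matr3 (-1.53), which has a named pseudogene and is uncertain.

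The same tissue contrast was fitted in the RepB-/- libraries, 3 of MEFs and 3 of liver, which share tables and counting with the WT libraries but no samples. There, 3256 of 14137 genes (23.0%) were higher in MEFs and 4229 (29.9%) higher in liver. Of the 3855 genes higher in WT MEFs, 3512 were tested, 3445 had the same sign (98.1%) and 2804 were called in the same direction. Of the 4082 genes higher in WT liver, 3987 were tested, 3971 had the same sign (99.6%) and 3604 were called. The RepB-/- MEF libraries detected 15350 to 15443 genes with at least 1 count and the WT ones 17048 to 17506, although the former held 20005541 to 20587556 counts.

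Genes with most of their exonic bases in a neighbour were low in the MEF table. Among tested genes with 20 to under 50 percent of exonic bases shared, 17.5% were higher in MEFs and 43.2% in liver, and with 50 percent or more 4.20% and 79.0%. For this last group the median level was 0.440 CPM in MEFs and 15.6 CPM in liver, while genes with no shared bases had medians of 14.1 and 15.9 CPM. Overlap was taken from GENCODE exons on GRCm38 on either strand, and how reads in shared bases were assigned is not given for either table. Leaving out all genes with at least 20 percent shared gave 3487 genes higher in MEFs and 3708 higher in liver. Without such genes the count higher in liver was 22 of 22 for plasma proteins, 27 of 28 for complement and coagulation, 19 of 21 for liver transcription factors, 30 of 31 for P450 and conjugating enzymes, 17 of 17 for bile acid genes and 4 of 23 for S phase genes. Members counted above that share this much are uncertain. Of 275 tested genes with a named pseudogene, 12.7% were higher in MEFs and 24.0% in liver, with a median log2 difference of -0.07. For genes without one the shares were 26.7% and 28.1%. Ldha, Calr and Rplp0 also have a named pseudogene, so their values carry the same uncertainty as those of Pcna and Matr3.

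**Figure D5:**
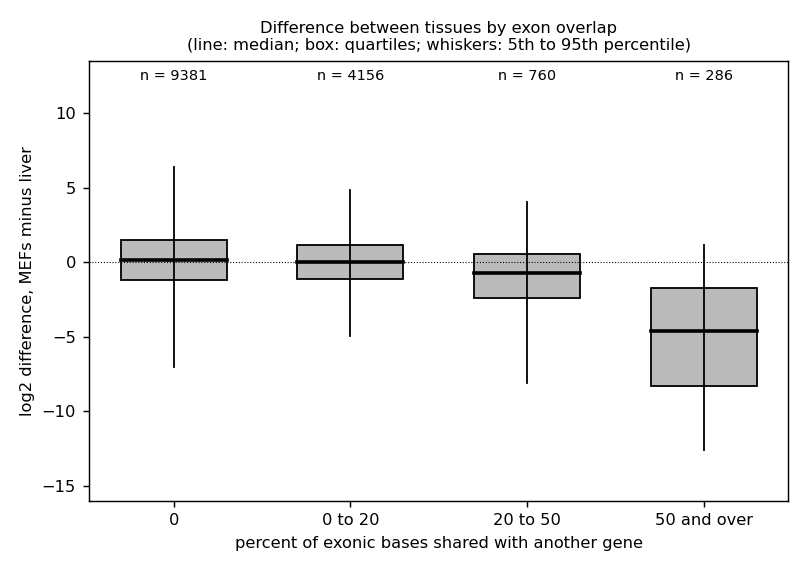
Log2 difference, MEFs minus liver (y axis), of tested genes by the percent of their exonic bases shared with another gene (x axis), with the median as a line, quartiles as a box and the 5th to 95th percentile as whiskers. The median was 0.17 with no shared bases and -4.60 with 50 percent or more.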

How the data were processed

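Counts of WT primary MEFs and WT liver, 3 libraries each, were analysed, and the tables' 18 columns of TPM or FPKM were left aside. Counts of RepB-/- MEFs and liver entered a separate fit of the same contrast. The authors deposited whole-number counts per gene without normalization. For MEFs, the study's methods describe stranded libraries, trimming by Cutadapt and alignment by Hisat2, and the submitters' processing notes also list Trim Galore 0.4.1, STAR 2.7.0 and HTSeq 0.12.4 with no role. The counting tool, its strand setting and the annotation are not given in the sources used here. By their gene positions the MEF table carries GRCm39 and the liver table GRCm38 coordinates, and positions printed here are GRCm38. The methods describe libraries from more than 1 company and instrument, with no assignment to libraries. Gene length, deposited per gene in bases, was used only to scale levels.

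Tables were joined by Ensembl ID. Genes were filtered with filterByExpr and fitted with edgeR 4.0.16 in R 4.3.3 (TMM, quasi-likelihood, tissue as the only term). A call was a Benjamini-Hochberg adjusted p under 0.05 over all tested genes and at least 2-fold. A floor was at most 3 counts in every library of a tissue. CPM used TMM-effective library sizes, so shares of raw counts and CPM differ. Floors cover counting error only, whereas SEs come from the quasi-likelihood fit and include the spread between libraries. The fit was tested on simulated data.

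Members and gene lists were chosen with earlier results of these data known. Named genes were the first 4 members of each list, up to 4 members called against their list's majority, the 15 most counted genes of each tissue, the 10 largest differences in each direction at 100 CPM or more, the 10 most abundant genes differing by under 0.25, the genes the study followed, and the 10 genes varying most among liver libraries. Other genes named were chosen after their values were seen, and some genes that the rule names are not reported here. Alternatives used DESeq2 1.42.0, limma 3.58.1 (voom, with a variance per tissue), other scalings, filters and thresholds, a replicate block and each library left out. Exon overlap was added after seeing the data. Figures were drawn with matplotlib 3.10.9. Brain libraries were not analysed here.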

Additional observations from a re-analysis of the deposited data

How the results depend on the processing

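With library totals alone 7062 genes were higher in MEFs and 2631 in liver, and the differences of Kdm6a, Itga1 and Zdhhc9 changed sign to 1.02, 0.0096 and 0.019. A 4-fold limit left 2535 genes higher in MEFs. A floor of 10 counts gave 499 MEF-restricted and 861 liver-restricted genes, and a minimum of 5 CPM gave 85 MEF-restricted genes. The excess of the X-linked over the autosomal median was 0.14 at 10 CPM or more and 0.54 without a filter on low counts. The 10 in place of the 100 most abundant genes held 7.72% of MEF and 24.96% of liver counts. Leaving out each library gave 3506 to 4542 genes higher in MEFs, 3912 to 4223 higher in liver, 268 to 452 MEF-restricted and 423 to 489 liver-restricted genes, and an X excess of 0.22 to 0.31. The 452 came without liver replicate 1, without which Gpc3 changed sign, its range being -4.18 to 1.70. A fit with a replicate block gave 3593 genes higher in MEFs and 3968 in liver. The labels do not say whether same-numbered libraries share more than a number. Their deviations from the tissue means correlated at -0.022, 0.0049 and -0.017. These values cannot decide it, since pairs with different numbers also lay between -0.022 and 0.025. DESeq2 gave 4591 and 4319, voom 4132 and 4010, and DESeq2's size factors 3889 and 4056. Across all alternatives 4 of the named gene values changed sign, 91 lost and 53 gained the call, and 3237 kept direction and call. Levels near 0.175 CPM in MEFs and 0.122 CPM in liver are at the floor, so lower expression was not detectable at this depth. The biological coefficient of variation was 47.5% over liver, 21.9% without that library and 10.99% over MEFs.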

Other observations

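The Hox genes, homeobox factors that record position along the body axis, were described after their values were seen. Of 39 Hox genes in both tables, 23 were detected at 1 CPM or more in every MEF library and 2 in every liver library, and 27 held at most 3 counts in every liver library. Genes numbered 9 to 13, which are used toward the tail end, summed to 226, 211 and 210 CPM in MEFs, and all 16 were at 0 CPM in every liver library. Of these 16, 11 were detected in MEFs.

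The levels were uneven between clusters. Hoxb9 had 72.5, 57.2 and 57.6 CPM in the MEF libraries, Hoxc13 34.7, 40.1 and 39.1 CPM, and Hoxb13, the last gene of its cluster, 20.6, 20.5 and 21.0 CPM. Genes of the Hoxd cluster were at most 0.88 CPM in any MEF library. The MEF libraries carry the tissue label Tail, and no other position was available for comparison.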
